A study of Mus musculus with 21 samples.

Results

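Ly6c2, Plac8, Vcan, Fn1, Thbs1 and Saa3 are 6 genes that circulating Ly6C-high, or inflammatory, monocytes of the mouse are known to express. They were chosen by name, and all 6 were found among the 45706 gene identifiers of the count table and passed the filter on counts, as did 23815 genes in all. The genes were measured by RNA sequencing in 21 libraries of sorted brain myeloid cells, in 7 groups of 3 libraries, after controlled cortical impact (CCI), a model of traumatic brain injury in which a piston strikes the exposed cortex. Microglia were sorted as CD45low CD11b+ cells in 5 groups, namely sham controls and injured mice of either genotype, WT or Fgg γ390–396A, 1 d or 7 d post-CCI. Infiltrating myeloid cells were sorted as CD45hi CD11b+ cells in the other 2 groups, the injured mice of either genotype at 1 d.

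All mice were adult males on the C57BL/6 background. Sham controls, taken here as WT mice, received the craniotomy without the impact. The paper names no genotype for them, and no day of sampling is given. No separate Fgg γ390–396A sham group and no uninjured infiltrating cells entered any comparison. Fgg γ390–396A mice carry a knock-in allele of the fibrinogen γ chain whose product clots but lacks the motif that binds the integrin CD11b/CD18, and the WT groups carry no altered allele. Tissue of 2 brains was pooled for each library before the cells were sorted. The 3 libraries of a group are thus 3 pools that each average over mice. The infiltrating gate takes in every CD45hi CD11b+ cell, neutrophils included, and no marker in it separates inflammatory monocytes from other leukocytes. Fewer cells of a type and less RNA per cell cannot be told apart in bulk libraries.

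Inflammatory monocytes leave the bone marrow through the chemokine receptor CCR2, enter injured tissue within hours to days, and there turn into macrophages, while Ly6C-low monocytes patrol vessels. Microglia, the resident macrophages of the brain, arise from the yolk sac, and the surface protein Ly6C and the small cytoplasmic protein PLAC8 are commonly used to tell blood-derived monocytes from them. The other 4 products are secreted: fibronectin (Fn1), the proteoglycan versican (Vcan) and thrombospondin-1 (Thbs1) enter the provisional matrix of a wound, where fibronectin is cross-linked to fibrin, and serum amyloid A3 (Saa3) is an acute-phase protein.

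Levels are given as CPM, that is counts relative to the TMM-scaled library size. Gene length had been divided out of the deposited values, so levels can also be set side by side between genes. Total counts ranged from 18896957 to 51875767 per library, ribosomal RNA genes took 43.0% to 58.5% of them, and 3 counts, the smallest level read as detected, corresponded to 0.0448 to 0.158 CPM. These floors cover counting error only. Marker lists separated the gates in every library. The summed level of 10 microglia markers was 2883 to 12057 CPM in the 15 microglia libraries and 366 to 996 CPM in the 6 infiltrating libraries, and that of 26 other classical monocyte genes was 218 to 1838 CPM and 11068 to 14285 CPM. All 10 microglia markers were lower in infiltrating cells than in microglia of the same genotype, and none was at 0 in any library.

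The 6 genes lie on 6 chromosomes of the GRCm38 build, and all are protein coding. Ly6c2 (ENSMUSG00000022584) lies at chr15:75108158-75111970 on the minus strand, and its close paralog Ly6c1 (ENSMUSG00000079018), a gene of endothelial cells and some leukocytes, lies at chr15:75044018-75048830, 59327 bases away. Plac8 (ENSMUSG00000029322) lies at chr5:100553725-100572245, Vcan (ENSMUSG00000021614) at chr13:89655312-89742509, Fn1 (ENSMUSG00000026193) at chr1:71585520-71653200 and Saa3 (ENSMUSG00000040026) at chr7:46711998-46715700, all on the minus strand. Thbs1 (ENSMUSG00000040152) lies at chr2:118111876-118127133 on the plus strand.

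Ly6c2 and Ly6c1 share most of their sequence, which matters here because the reads of one can be assigned to the other. Their coding sequences of 393 bases differed at 9 bases, an identity of 97.7%, and 49.2% of the 31-base words of the Ly6c2 transcripts also occur in Ly6c1 transcripts. The stretch from coding base 7 to 66 holds 6 of the differences, which are shown in capitals.
Ly6c1: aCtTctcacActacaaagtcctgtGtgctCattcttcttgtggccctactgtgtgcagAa
Ly6c2: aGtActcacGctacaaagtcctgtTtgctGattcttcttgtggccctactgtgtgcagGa
Ly6c1 was low throughout, with group means of 0.0254 to 0.862 CPM, and the highest of all libraries held 1.95 CPM. It was called in no comparison. Summing both genes changed no call of Ly6c2, but how reads were split between them was not tested, and the values of Ly6c2 are uncertain to that extent.

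Start-site windows of 300 bases, from 250 bases before to 50 bases after an annotated RefSeq start (GRCm38.p6), were at hand for 4 of the 6 genes. The windows of the paralog pair and of Saa3 are shown 5′ to 3′ on the gene's strand so that the paralogs can be compared with each other and the acute-phase gene set beside them. The letters GAGGAAGT, the core of motifs for the myeloid factor PU.1, occur 2 times in the Ly6c2 window, at 108 bases before the start and again behind it. The first copy has no counterpart in the Ly6c1 windows. The second has one, in the same sequence context, but the Ly6c1 window shown ends within it, and the window of a further annotated Ly6c1 start holds it whole. The Ly6c1 window shown holds TATAAA at 143 bases before the start.
Ly6c2 chr15:75111922-75112221: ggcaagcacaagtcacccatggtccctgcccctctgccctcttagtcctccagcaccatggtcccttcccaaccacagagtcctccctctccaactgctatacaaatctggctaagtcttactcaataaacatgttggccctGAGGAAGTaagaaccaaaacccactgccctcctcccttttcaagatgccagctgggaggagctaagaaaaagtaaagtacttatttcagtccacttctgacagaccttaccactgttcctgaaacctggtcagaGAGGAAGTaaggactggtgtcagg
Ly6c1 chr15:75048788-75049087: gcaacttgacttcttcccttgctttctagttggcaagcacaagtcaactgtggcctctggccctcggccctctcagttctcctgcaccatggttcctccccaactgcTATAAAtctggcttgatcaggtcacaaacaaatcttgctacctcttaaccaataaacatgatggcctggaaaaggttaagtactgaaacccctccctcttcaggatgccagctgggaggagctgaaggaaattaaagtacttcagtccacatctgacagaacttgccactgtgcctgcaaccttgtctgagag
Saa3 chr7:46715627-46715926: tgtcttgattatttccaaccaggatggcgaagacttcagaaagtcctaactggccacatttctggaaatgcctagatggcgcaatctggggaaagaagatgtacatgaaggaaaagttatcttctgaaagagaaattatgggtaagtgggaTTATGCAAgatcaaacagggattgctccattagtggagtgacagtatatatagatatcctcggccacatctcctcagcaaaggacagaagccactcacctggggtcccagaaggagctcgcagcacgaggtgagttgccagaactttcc
The Saa3 window holds TTATGCAA, a match on the other strand to TTGCNNAA, the form bound by C/EBP factors, from 99 bases before the start. Capitals mark these matches, which were searched on both strands together with GGGA and TTCC spaced by 2 bases, the form bound by NF-κB, which was found in none of these windows. Of all 32851 windows, 3.2% hold GAGGAAGT, 13.6% TATAAA, 10.8% TTGCNNAA and 1.47% the NF-κB form. Plac8 has 2 windows, of which that of a start inside the gene holds a C/EBP match and that at the gene's own start does not. A match describes letters and is not a binding site.

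The comparison of infiltrating cells with microglia at 1 d shows in which gated population the 6 genes were expressed. Of the 6 genes, 5 were higher in infiltrating cells in both genotypes, namely Ly6c2, Plac8, Vcan, Fn1 and Thbs1, by 12.7-fold to 74.7-fold. Of all genes tested, 5.61% were higher in the WT comparison and 6.96% in that of Fgg γ390–396A mice. For these 5 genes the libraries of the populations did not overlap. How many of all genes separate without overlap, here or in the comparisons below, is not given. Saa3 did not pass the test in either genotype.

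**Figure D1:**
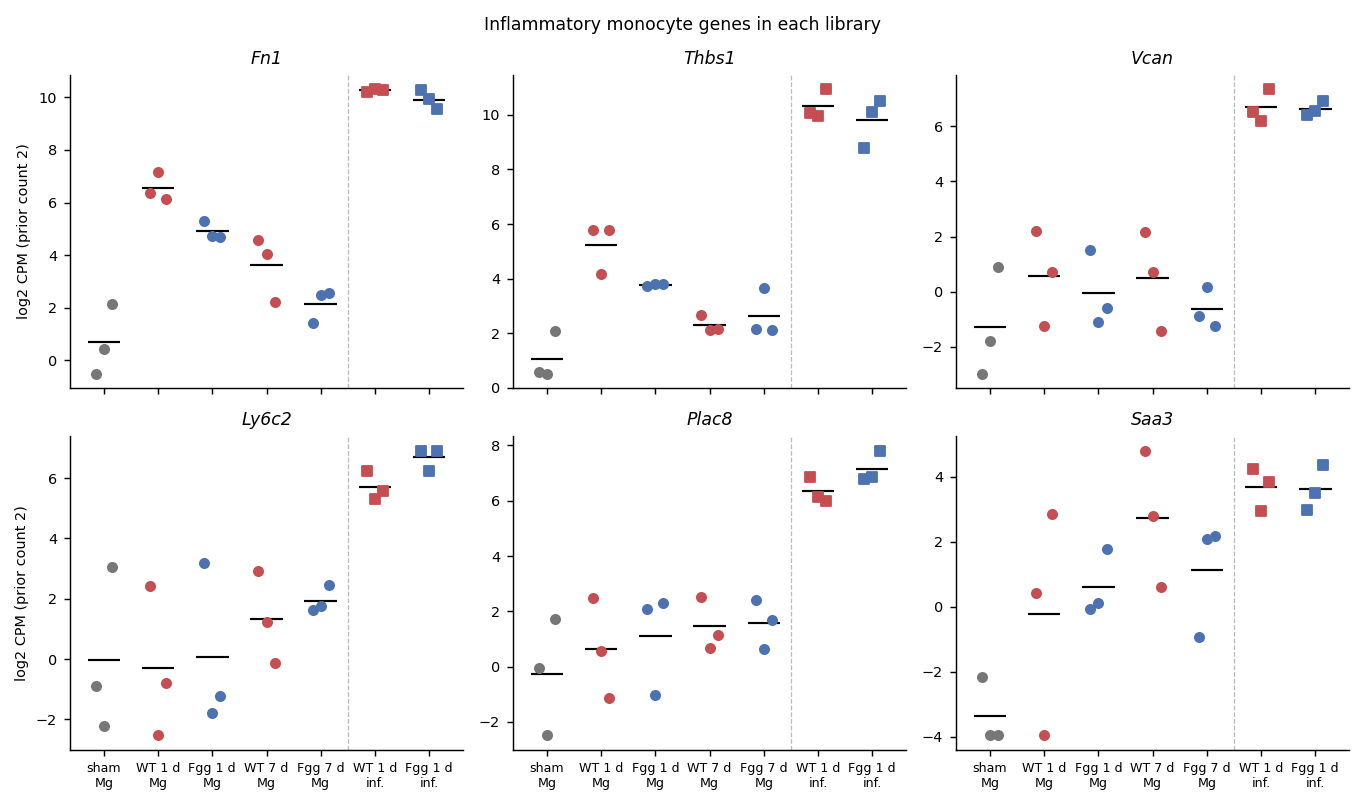
The level of each of the 6 genes, as log2 CPM with a prior count of 2, in the 21 libraries (points, 3 per group) with the mean of the log2 values of each group (line). Mg is microglia and inf. infiltrating myeloid cells, with sham controls in grey, WT mice in red and Fgg γ390–396A mice in blue. Infiltrating libraries (squares) lie above all microglia libraries for every gene but Saa3, and among microglia Fn1 and Thbs1 were highest in WT mice at 1 d.

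Fn1 and Thbs1 were the most abundant of the 6 in infiltrating cells. Fn1 was at 1183, 1284 and 1251 CPM in the infiltrating cells of WT mice and at 1229.8, 978 and 748 CPM in those of Fgg γ390–396A mice. Thbs1 was at 1069, 987 and 1987 CPM in WT mice and at 442, 1099 and 1442 CPM in Fgg γ390–396A mice. Their mean levels ranked 88 and 80 among the 23815 genes tested in the infiltrating cells of WT mice, and the 2 genes did not differ from each other beyond their spread. In edgeR's quasi-likelihood test, Fn1 was 12.7-fold higher than in microglia of WT mice (log2 fold change 3.66 ± 0.57 SE, adjusted p = 0.000145) and 32.4-fold higher than in microglia of Fgg γ390–396A mice (5.02 ± 0.61, adjusted p = 7.93e-06). For Thbs1 the folds were 31.7 (4.98 ± 0.59, adjusted p = 6.77e-06) and 72.7 (6.18 ± 0.62, adjusted p = 9.45e-07).

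Vcan, Plac8 and Ly6c2 followed at about one order of magnitude less. Vcan was at 92.0, 73.1 and 164 CPM in the infiltrating cells of WT mice and at 85.9, 94.0 and 122 CPM in those of Fgg γ390–396A mice, against at most 4.58 CPM in any microglia library. Plac8 was at 117, 71.0 and 64.2 CPM and at 112, 115 and 225 CPM, against at most 5.73 CPM in microglia. Ly6c2 was at 75.9, 39.2 and 47.4 CPM and at 119, 75.9 and 121 CPM, against at most 9.07 CPM in microglia. These 3 genes have low and scattered microglia levels, so their folds have wide errors: in WT mice the log2 fold change was 5.66 ± 1.01 SE for Vcan (adjusted p = 0.000518), 5.11 ± 0.98 for Plac8 (adjusted p = 0.001) and 4.77 ± 1.37 for Ly6c2 (adjusted p = 0.0214, edgeR). In Fgg γ390–396A mice it was 6.22 ± 1.03, 5.58 ± 0.99 and 4.97 ± 1.36, with adjusted p of 0.000216, 0.000407 and 0.0122. Of the 11 tested genes of the Ly6 cluster around Ly6c2, Ly6a was higher in infiltrating cells of both genotypes as well (2.69 ± 0.67 and 2.05 ± 0.64), Ly6i was called higher in Fgg γ390–396A mice (5.08 ± 1.41), and Ly6k, at 0 CPM in all infiltrating libraries, was lower. The call of Ly6c2 in WT mice was lost without the WT microglia library 2 (4.24, adjusted p = 0.0814) or 3 (4.35, adjusted p = 0.0867).

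Saa3 was the lowest of the 6 in infiltrating cells and the one least tied to them. It was at 18.9, 7.58 and 14.2 CPM in WT mice and at 7.77, 11.1 and 20.6 CPM in Fgg γ390–396A mice, and 1 microglia library, from WT mice at 7 d, exceeded all of these with 27.8 CPM. At 1 d the log2 difference between infiltrating cells and microglia was 2.29 ± 1.14 SE in WT mice (adjusted p = 0.203) and 2.94 ± 1.17 in Fgg γ390–396A mice (adjusted p = 0.0843). Without the WT microglia library 3, which held 7.10 CPM, the value in WT mice was 4.47 with an adjusted p of 0.0399, and in a fit of the compared Fgg γ390–396A groups alone it was 3.06 with an adjusted p of 0.0149.

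Most other genes of classical monocytes were higher in infiltrating cells as well. Of the 26 listed, 22 were higher and 0 lower in WT mice, with a median log2 fold change of 4.46, and 24 and 0 of them in Fgg γ390–396A mice, with a median of 4.98. The median over all genes tested was 0 and -0.13. The smallest p belonged to Ms4a6c (2.36) and the chemokine receptor Ccr1 (3.16) in WT mice and to Msrb1 (4.74) and Gsr (3.29), enzymes that repair or buffer oxidation, in Fgg γ390–396A mice. Of 10 genes of nonclassical monocytes, 6 and 8 were higher, led by the integrin Itgal and the nuclear receptor Nr4a1. Of 12 neutrophil markers, 6 and 8 were higher as well, and S100a8 reached 1925 to 7308 CPM in WT mice and 1329 to 2987 CPM in Fgg γ390–396A mice, while the neutrophil-specific Ly6g was at 0.948 to 5.16 CPM. Of 8 dendritic cell markers 6 were higher in each genotype, and of 8 markers of border macrophages 3 and 5. The part of neutrophils and of these other cells in the levels of the 6 genes was not tested.

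Of 10 transcription factors of monocytes, 2 were higher in infiltrating cells of WT mice, Cebpb (2.51 ± 0.28 SE) and Klf4 (3.11 ± 0.54), and 4 in Fgg γ390–396A mice, led by Cebpb (2.59 ± 0.28) and Spi1 (1.05 ± 0.14), which encodes PU.1. Among the 18 receptors for the encoded proteins, Cd44, a receptor of hyaluronan and versican matrices, was higher in both genotypes (2.94 ± 0.40 and 4.45 ± 0.43), as were Cd47, which binds thrombospondin-1, and the integrin subunit Itga4, which binds fibronectin. In all, 4 receptors were higher and 3 lower in WT mice, against 6 and 3 in Fgg γ390–396A mice, where 6.31% and 9.7% of all genes were lower. The integrin subunit Itgb3 (-2.28 ± 0.37 in WT and -1.74 ± 0.36 in mutant mice) and the purinergic receptor P2rx7 were among the lower ones in both genotypes.

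**Figure D2:**
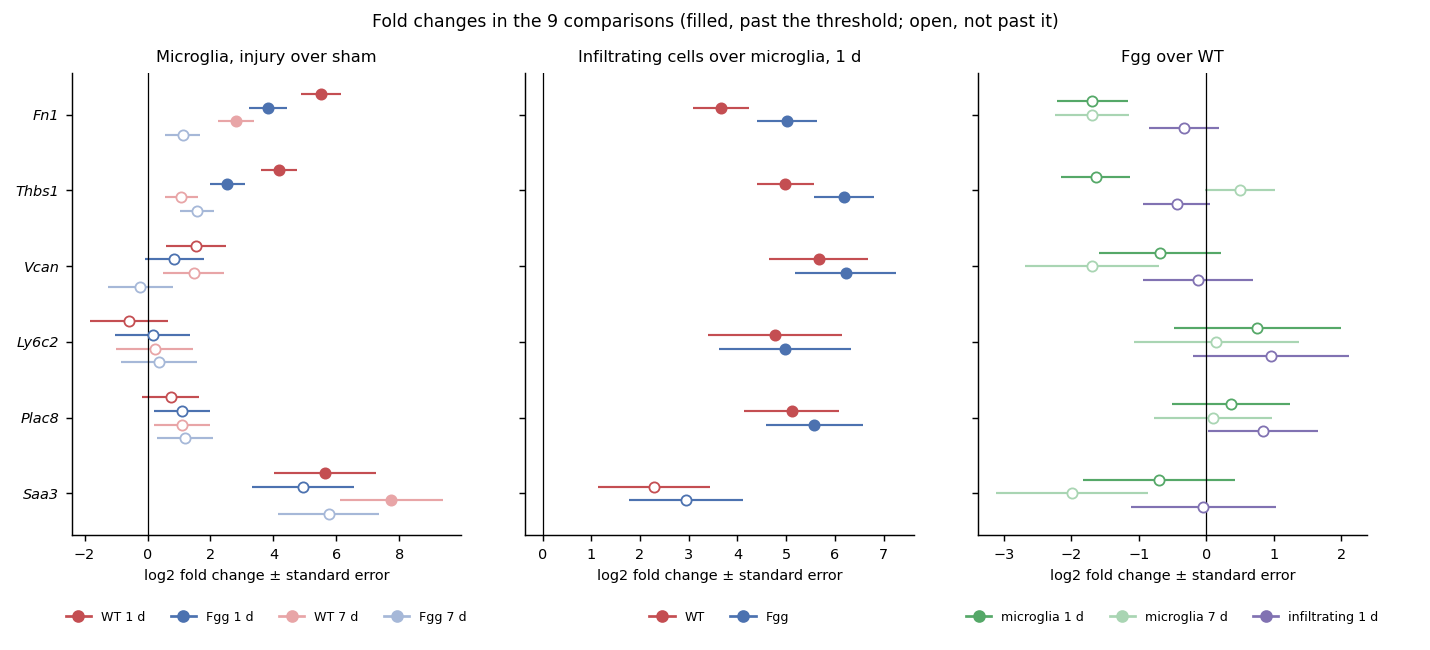
Log2 fold change (x axis, with its standard error as a bar) of the 6 genes (y axis) in 9 comparisons of edgeR's test, for microglia after injury over sham controls, infiltrating cells over microglia at 1 d, and Fgg γ390–396A over WT mice. Filled points passed the threshold, and all points of the right-hand panel are open.

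The comparison of injured microglia with sham controls asked which of the 6 genes changed in the resident gate. At 1 d in WT mice, Fn1 rose 45.8-fold, Thbs1 18.1-fold and Saa3 by a log2 fold change of 5.64, whereas Ly6c2, Plac8 and Vcan did not pass the test. These 3 calls stand against 8.06% of all genes that were higher. The comparisons with sham controls all share the same 3 sham libraries. Fn1 was at 0.637, 1.29 and 4.35 CPM in sham controls and at 81.5, 142 and 70.3 CPM in WT mice at 1 d (log2 fold change 5.52 ± 0.64 SE, adjusted p = 5.54e-06, edgeR). Thbs1 was at 1.43, 1.37 and 4.15 CPM in sham controls and at 54.7, 17.8 and 55.2 CPM at 1 d (4.18 ± 0.58, adjusted p = 3.38e-05). The groups did not overlap for either gene. With these levels Fn1 ranked 654 and Thbs1 1491 of the 23815 genes in WT microglia at 1 d.

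Saa3 had a total of 5 counts in the sham controls, all in library 1, so the size of its rise is poorly known. It was at 1.26, 0 and 7.10 CPM in WT microglia at 1 d, which overlaps with the sham controls at 0.159, 0 and 0 CPM. The log2 fold change of 5.64 ± 1.61 SE passed the test with an adjusted p of 0.0187, and the call was lost without the sham library 2 (5.18, adjusted p = 0.0746) or 3 (4.97, adjusted p = 0.0796), without the WT library 3 (3.53, adjusted p = 0.206) and in a fit of the compared groups alone (5.64, adjusted p = 0.0889). Over all 15 alternatives the adjusted p ranged from 0.00142 to 0.206.

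The 3 genes without a call scattered widely within the groups. Ly6c2 was at 0.478, 0.152 and 8.15 CPM in sham controls and at 5.34, 0.109 and 0.507 CPM in WT mice at 1 d. Plac8 was at 0.892, 0.114 and 3.22 CPM and at 5.50, 1.41 and 0.390 CPM. Vcan was at 0.0637, 0.228 and 1.81 CPM and at 4.58, 0.362 and 1.56 CPM. The sham library 3 was the highest of its group for all 3 genes, and also for Fn1, Thbs1, Ccr2 and the neutrophil marker S100a8, and the WT library 1 was the highest at 1 d for the 3 genes, for Ccr2 and for S100a8. Ly6c2 differed 53.6-fold within the sham controls and 49.2-fold within WT mice at 1 d, S100a8 301-fold and 3.80-fold, and the microglia marker Tmem119 1.44-fold and 2.07-fold. The part of these libraries' monocyte and neutrophil transcripts in the result was not tested. Their intervals were wide, and the 95% interval of the log2 difference was -3.20 to 2.01 for Ly6c2, -1.15 to 2.62 for Plac8 and -0.47 to 3.54 for Vcan. Without the sham library 3, Vcan was called (3.91, adjusted p = 0.0462).

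Of the 26 other classical monocyte genes, 10 were higher and 0 lower, led by the lipopolysaccharide co-receptor Cd14 (3.38 ± 0.47 SE) and Ccr1 (2.24 ± 0.34), and the median of the list was 1.49 against 0 over all genes. Not all of the list moved: Ccr2, which marks inflammatory monocytes, was at 27.8, 1.99 and 5.27 CPM after injury and at 3.83 to 8.27 CPM in sham controls, and Chil3 was at 0.543 to 12.7 CPM and 0.223 to 17.1 CPM. Among the matrix and acute-phase relatives, 3 of the 16 tested were higher, namely Spp1 (osteopontin, 7.49 ± 0.65), Tgfbi (2.96 ± 0.33) and Adamts1, a protease that cleaves versican. Of the 18 receptors 6 were higher and 2 lower: Cd44 (4.76 ± 0.44) and the syndecan Sdc4 (3.44 ± 0.38), a coreceptor for fibronectin, led the first, and Itgb5 (-1.04 ± 0.19) and P2rx7 (-1.23 ± 0.26) were the second. Of 10 microglia markers 7 were lower and 0 higher, and of 12 neutrophil markers 1 was lower (Csf3r), where 4.21% of all genes were.

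Markers of other cells moved in the same libraries. Of 7 tested platelet markers, cells that are rich in Thbs1, Ppbp was higher (6.47 ± 1.34, adjusted p = 0.0017 in edgeR) and Gp9 lower. The summed level of the list was 51.6 to 113 CPM in sham controls and 91.7 to 175 CPM in WT microglia at 1 d. Most of it came from Pf4, which is also on the border macrophage list, with means of 43.0 and 119 CPM, and from Gp9, with 40.1 and 6.98 CPM. Of 6 astrocyte markers Gfap was higher (4.65 ± 0.89, adjusted p = 0.000884 in edgeR) and Slc1a3 lower, with summed levels of 41.0 to 49.2 and 11.2 to 19.4 CPM. Slc1a3 held most of these sums, with means of 37.0 and 9.87 CPM, against 0.0762 and 1.98 CPM for Gfap. Of 8 markers of the oligodendrocyte lineage Mbp (1.13 ± 0.31, adjusted p = 0.0158) and Cspg4, at 0 CPM in all sham libraries, were higher, with summed levels of 6.57 to 12.5 and 12.8 to 31.9 CPM. Ppbp, Gfap and Cspg4 were also higher in Fgg γ390–396A mice at 1 d. The 8 markers of fibroblasts and pericytes, cells that are rich in Fn1 and Thbs1, summed to at most 0.98 CPM in sham controls and 0.573 CPM after injury. The part of these cells in the levels of Fn1 and Thbs1 was not tested.

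At 7 d in WT mice Fn1 remained higher than in sham controls, at 24.0, 16.3 and 4.64 CPM (log2 fold change 2.81 ± 0.57 SE, adjusted p = 0.00778, edgeR). Its lowest library lay just above the highest sham library. Saa3 was higher as well, at 27.8, 6.83 and 1.47 CPM (7.75 ± 1.65, adjusted p = 0.0106), and Thbs1 was at 6.26, 4.27 and 4.37 CPM, just above the sham libraries (1.08 ± 0.54, adjusted p = 0.448). The calls of Fn1 and Saa3, 2 of the 6 genes, stand against 1.93% of all genes that were higher. Both calls were lost without the sham library 2 (Fn1 2.57, adjusted p = 0.0546, and Saa3 7.29, adjusted p = 0.0628). That of Fn1 was also lost without the WT 7 d library 1 (2.26, adjusted p = 0.0507) and in a fit of the compared groups alone (2.83, adjusted p = 0.118), and that of Saa3 without the sham library 3 (7.08, adjusted p = 0.0565). Of the 26 companions 3 were higher at 7 d, led by the interferon-induced Ifitm3 (3.21 ± 0.53) and the lysozyme gene Lyz2 (1.94 ± 0.47), with a median of 0.83. Spp1 (6.62 ± 0.63) was called of the 16 relatives, and Tlr2 (1.39 ± 0.26), a receptor that serum amyloid A can engage, and Cd44 (1.77 ± 0.39) of the 18 receptors. Of the 10 microglia markers 2 were lower, where 0.0924% of all genes were.

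Between 1 d and 7 d in WT microglia, Fn1 fell by 2.71 ± 0.55 SE (adjusted p = 0.00275) and Thbs1 fell by 3.10 ± 0.55 (adjusted p = 0.000819) on the log2 scale, with no overlap, where 4.39% of all genes were lower. Saa3 was 2.11 ± 1.14 higher at 7 d in log2 terms, which did not pass the test (adjusted p = 0.29). Among the 26 companions Cd14 (-3.11 ± 0.46) and the lectin receptor Clec4d (-3.62 ± 0.71) led 6 that were lower, and Ly6a (2.50 ± 0.66) and Lyz2 (1.74 ± 0.46) were higher, as were 2.67% of all genes. Of the receptors Sdc4 and Cd44 (-2.99 ± 0.40) led 4 that were lower, and Tgfbi (-2.90 ± 0.32) and Adamts1 (-2.83 ± 0.61) were the relatives that were lower. Ly6c2, Plac8 and Vcan at 7 d were at 0.850 to 7.55, 1.54 to 5.73 and 0.309 to 4.40 CPM, and their log2 differences from 1 d were between -0.07 and 0.83 with adjusted p of 0.788 to 1.

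In Fgg γ390–396A mice the same contrasts gave a rise of Fn1 and Thbs1 at 1 d. Fn1 was at 39.3, 26.2 and 25.6 CPM (3.83 ± 0.59 SE over sham controls, adjusted p = 0.00021), and Thbs1 was at 13.2, 13.8 and 14.1 CPM (2.54 ± 0.54, adjusted p = 0.00367), against 5.49% of all genes higher. Saa3, at 0.880, 1.01 and 3.37 CPM, lay above all sham libraries but did not pass (4.94 ± 1.61, adjusted p = 0.0608). DESeq2 called it with an adjusted p of 0.00865, and the range over all alternatives was 0.00865 to 0.213. Ly6c2 was at 9.07, 0.227 and 0.362 CPM, Plac8 at 4.16, 0.428 and 4.90 CPM and Vcan at 2.80, 0.403 and 0.603 CPM, with adjusted p of 0.521 to 1. Of the 26 companions 5 were higher, led by Cd14 (2.57 ± 0.45) and Ms4a6c (1.41 ± 0.25), with a median of 0.89. Spp1 (6.60 ± 0.63) and Tgfbi (2.33 ± 0.32) led 3 relatives that were higher, and Cd44 (3.04 ± 0.41) and Itga5 (2.24 ± 0.31), the fibronectin-binding integrin subunit, led 6 receptors. Of the 10 microglia markers 5 were lower, where 1.15% of all genes were.

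At 7 d in Fgg γ390–396A mice, 0 of the 6 genes passed edgeR's test over sham controls, against 0.663% of all genes called in either direction. At an unadjusted p under 0.05 there were 2, Thbs1 and Saa3, where 1808 of all 23815 genes had such a p. DESeq2 called 1, Saa3 (5.81, adjusted p = 0.00595 with 0.00595 to 0.404 over the other settings). Fn1 was at 2.64, 5.49 and 5.84 CPM, which overlaps with the sham controls, and Thbs1 at 4.35, 12.4 and 4.30 CPM. From 1 d to 7 d Fn1 fell by 2.71 ± 0.56 SE on the log2 scale (adjusted p = 0.0054, with 2.88% of all genes lower), and the log2 difference of Thbs1 was -0.96 ± 0.51 (adjusted p = 0.361). Ly6c2 at 2.996, 3.30 and 5.41 CPM and Plac8 at 5.25, 1.51 and 3.19 CPM scattered less here than in the other microglia groups, 1.81-fold and 3.48-fold from the lowest to the highest library. Ifitm3 (2.61 ± 0.52) was the 1 companion higher than in sham controls at 7 d and Spp1 (4.44 ± 0.57) the 1 relative, and from 1 d to 7 d Cd14 (-2.24 ± 0.45) was the 1 companion that was lower.

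The genotype comparisons asked whether loss of the CD11b/CD18 binding motif of fibrinogen changed the genes, and 0 of the 6 passed in any of them, in edgeR and in DESeq2. The thresholds called 0.0546% of all genes in microglia at 1 d, 0.0378% in microglia at 7 d and 0.453% in infiltrating cells, which is 13, 9 and 108 genes, where DESeq2 called 104, 80 and 841. At an unadjusted p under 0.05 there were 2 of the 6 in microglia at 1 d, 1 at 7 d and 0 in infiltrating cells. Of all 23815 genes, 1209, 795 and 2749 had such a p in the same comparisons.

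Fn1 and Thbs1 in microglia at 1 d were the 2 genes with a low unadjusted p. All 3 libraries of Fgg γ390–396A mice lay below all 3 of WT mice for Fn1, with means of 30.4 ± 7.73 (SD, n = 3) and 97.8 ± 38.3 CPM. The same held for Thbs1, with 13.7 ± 0.448 against 42.6 ± 21.4 CPM. With 3 libraries a group, genes without a difference can separate in this way too. The share of all genes that did so is not given, and the separation was not tested. The log2 difference was -1.69 ± 0.53 SE for Fn1 (95% interval -2.80 to -0.57, unadjusted p = 0.00496 and adjusted p = 0.813 in edgeR) and -1.64 ± 0.51 for Thbs1 (-2.71 to -0.57, unadjusted p = 0.00473 and adjusted p = 0.81). In the alternatives both kept this direction, and the adjusted p ranged from 0.126 to 1 for Fn1 and from 0.103 to 1 for Thbs1, so neither passed 0.1. Several measures moved alongside in the same 6 libraries. The summed microglia markers were at 2883, 4102 and 4550 CPM in WT mice and at 5125, 5217 and 6746 CPM in Fgg γ390–396A mice, the 26 companions at 1330 to 1838 and 935 to 1335 CPM, the 12 neutrophil markers at 175 to 877 and 106 to 439 CPM, and ribosomal RNA genes took 50.6% to 58.5% and 47.1% to 52.4% of the counts. Cd14 held the largest part of the companions' sum, with means of 903 CPM in WT and 516 CPM in Fgg γ390–396A mice. Ccr2 had means of 11.7 CPM in WT mice (1.99 to 27.8) and 10.6 CPM in Fgg γ390–396A mice (1.41 to 27.7). The mean of Ifitm3 was 175 CPM in WT mice (132 to 213) and 233 CPM in Fgg γ390–396A mice (73.2 to 451). Its medians were 179 and 174 CPM. The part of these measures in the differences of Fn1 and Thbs1 was not tested. Ly6c2 (0.76 ± 1.23 SE), Plac8 (0.37 ± 0.87), Vcan (-0.69 ± 0.90) and Saa3 (-0.70 ± 1.13) overlapped between the genotypes.

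At 7 d Fn1 was at 4.66 ± 1.76 (SD, n = 3) CPM in Fgg γ390–396A microglia and at 14.98 ± 9.76 CPM in WT microglia (-1.69 ± 0.55 SE, unadjusted p = 0.00593 and adjusted p = 1, edgeR), and the groups overlapped. Thbs1 was 0.50 ± 0.52 higher in log2 terms (adjusted p = 1). The test of the change in genotype difference between 1 d and 7 d called 0 of the 6 genes and 0% of all genes, although DESeq2 called 33 genes of the whole table and 653 had an unadjusted p under 0.05. For Thbs1 this change was 2.14 ± 0.73 in log2 units (unadjusted p = 0.00841, adjusted p = 1), and 1 of the 6 genes had an unadjusted p under 0.05. For Fn1 it was -0.0019 (unadjusted p = 0.997).

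In infiltrating cells the means of Ly6c2 were 54.1 ± 19.3 (SD, n = 3) CPM in WT mice and 105 ± 25.5 CPM in Fgg γ390–396A mice, and those of Plac8 84.1 ± 28.7 and 151 ± 64.8 CPM. The log2 differences of 0.96 ± 1.15 SE (adjusted p = 0.831) and 0.84 ± 0.81 (adjusted p = 0.734) did not pass, and both groups overlapped. Fn1 differed by -0.33 ± 0.52, Thbs1 by -0.44 ± 0.50, Vcan by -0.13 ± 0.81 and Saa3 by -0.05 ± 1.08, with adjusted p of 0.807 to 1. The 95% intervals of these 6 differences ran from -2.30 (Saa3) at the lowest to 3.37 (Ly6c2) at the highest. For Fn1 the interval was -1.41 to 0.75 and for Thbs1 -1.48 to 0.60. Differences within these intervals could not be told from 0. The intervals rest on a spread estimated over all 7 groups, microglia included. With the compared groups only, the SE of Saa3 was 0.42 in place of 1.08. Of the 26 companions 0 were called in any genotype comparison, with median log2 differences of -0.53 in microglia at 1 d, -0.07 at 7 d and -0.01 in infiltrating cells. The test of whether the genotype difference differed between infiltrating cells and microglia at 1 d called 0 of the 6 in edgeR and in DESeq2. In edgeR 0.0462% of all genes were called. At an unadjusted p under 0.05 there were 0 of the 6, where 1994 of all 23815 genes had such a p. The lowest unadjusted p were those of Fn1 (1.36 ± 0.73 SE, 95% interval -0.18 to 2.89, adjusted p = 0.652) and Thbs1 (1.199 ± 0.71, -0.28 to 2.68, adjusted p = 0.691).

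**Figure D3:**
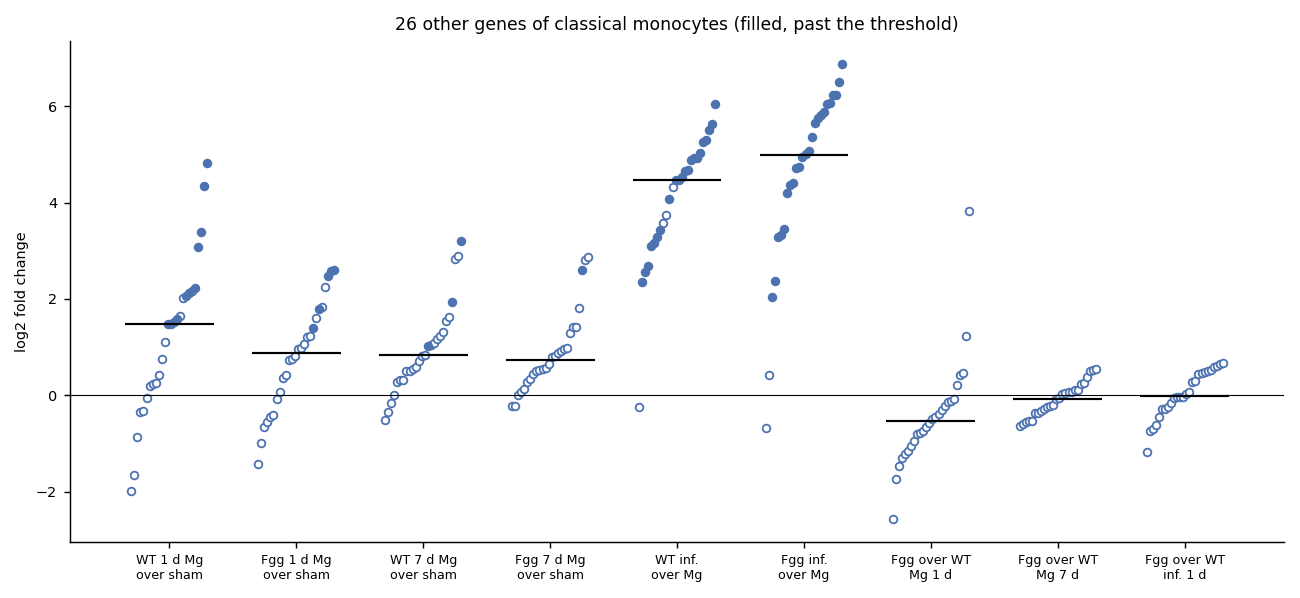
Log2 fold change (y axis) of 26 other genes of classical monocytes in 9 comparisons (x axis), sorted within each, with filled points past the threshold and the median as a line. Mg is microglia and inf. infiltrating cells. The medians are 4.46 and 4.98 for infiltrating cells over microglia, 0.73 to 1.49 for injured microglia over sham controls, and at or below 0 between genotypes.

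Set against infiltrating cells, the microglia level of the 6 genes split by gene. In WT mice at 1 d the mean microglia level was 7.89% of the mean infiltrating level for Fn1, with single libraries at 5.67% to 11.4%. It was 3.16% for Thbs1 (1.32% to 4.10%), 3.67% for Ly6c2 (0.2% to 9.87%), 2.89% for Plac8 (0.464% to 6.54%) and 1.97% for Vcan (0.33% to 4.17%). Ccr2, which marks inflammatory monocytes, stood at 3.32% (0.566% to 7.89%) in the same libraries. Chil3 was at 3.39% (0.37% to 8.69%), F13a1 at 4.55% (2.35% to 8.69%) and the neutrophil marker S100a9 at 6.90% (1.22% to 13.2%). In sham controls the share was 0.169% for Fn1 and 0.172% for Thbs1, but 5.40% for Ly6c2 and 1.68% for Plac8, with the sham library 3 as the highest. That of Ccr2 was 1.53%. In Fgg γ390–396A mice at 1 d the shares were 3.08% for Fn1, 1.38% for Thbs1, 3.06% for Ly6c2, 2.10% for Plac8 and 1.26% for Vcan. Saa3 was apart, at 20.5% in WT and 13.3% in Fgg γ390–396A microglia at 1 d and at 88.6% (10.8% to 205%) and 23.1% at 7 d, relative to infiltrating cells at 1 d. No infiltrating cells were collected at 7 d, and how much of each level came from monocytes in the microglia gate was not tested.

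**Figure D4:**
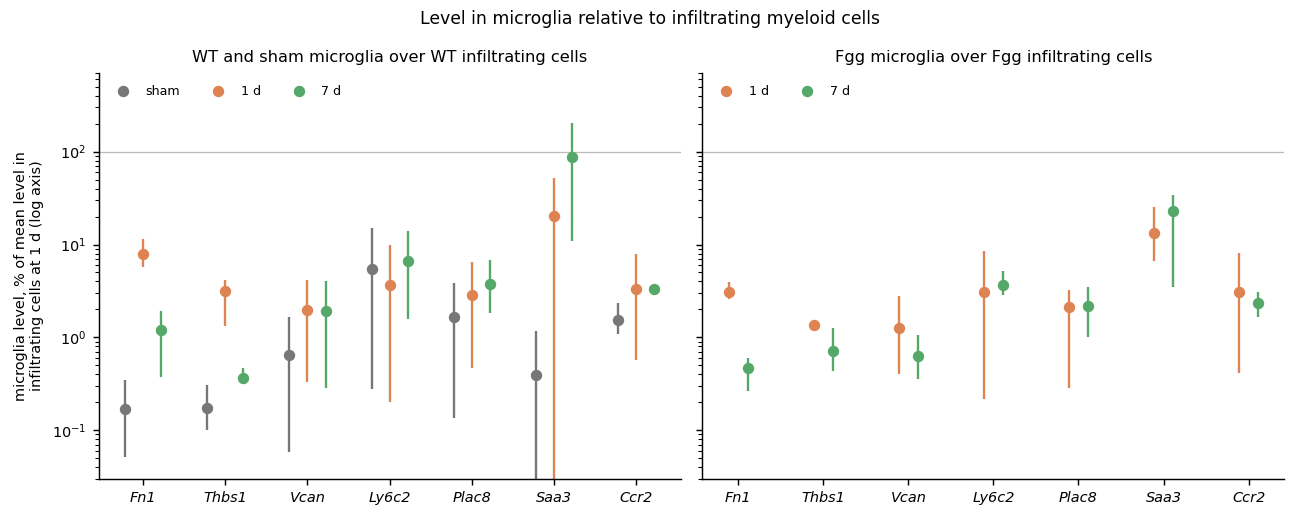
Microglia level of the 6 genes and of Ccr2 as a percentage of the mean level in infiltrating cells of the same genotype at 1 d (y axis, log scale). Points are group means of 3 libraries, bars run from the lowest to the highest library, and the grey line marks 100%. Sham controls are set against WT infiltrating cells, and a bar that leaves the panel at the bottom has a library at 0 (Saa3 in sham controls and in WT mice at 1 d).

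The order of the 6 levels changed with the population. In infiltrating cells it was Thbs1 and Fn1, then Vcan, Plac8 and Ly6c2, and then Saa3, and neighbours within these sets lay within each other's spread. In WT microglia at 1 d it was Fn1, Thbs1 and then the other 4, whose means of 1.99 to 2.79 CPM could not be ordered, and in Fgg γ390–396A microglia at 1 d the same 2 genes led. In WT microglia at 7 d Saa3, at 12.02 ± 13.9 (SD, n = 3) CPM, was as high as Fn1 at 14.98 ± 9.76 CPM within its spread. In sham controls no mean passed 2.93 CPM, and no order could be given among Ly6c2, Thbs1, Fn1, Plac8 and Vcan.

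Across the 15 microglia libraries the log2 levels of Fn1 and Thbs1 moved together most (Pearson r = 0.871). Those of Ly6c2 and Plac8 (0.706) and of Ly6c2 and Vcan (0.678) followed. Between Ly6c2 and Fn1 (-0.00438) and between Ly6c2 and Thbs1 (0.0408) the r was small. These r values describe libraries that fall into 5 groups with different mean levels and carry no test. The same library was highest for Ly6c2 and Fn1 in sham controls, in WT mice at 7 d and in mutant mice at both times. In WT mice at 1 d it was not. For Ly6c2 and Thbs1 the highest library was the same only in sham controls and in WT mice at 7 d. Correlation within groups was not tested. Over all 21 libraries, which fall into the populations, the genes most like each member among 11285 genes were Lgals1 (r = 0.987), Cd44 and Vim for Fn1, Pim1 (0.986), Rnf149 and Anxa2 for Thbs1, and S100a6 (0.976), Atp8b4 and Gm14548 for Vcan. They were Napsa (0.941), Nedd9 and Ifitm6 for Ly6c2 and Sirpb1c (0.948), Napsa and Sirpb1a for Plac8. Those of Saa3 were less alike, with Gpnmb (0.85), Rilpl2 and C920009B18Rik. Gpnmb was at 0.0948 ± 0.0564 (SD, n = 3) CPM in sham controls, at 1.45 ± 1.01 CPM in WT microglia at 1 d and at 21.6 ± 13.4 CPM at 7 d, whereas Lgals1 was at 5.01 ± 4.07, 82.1 ± 25.3 and 16.3 ± 4.21 CPM in the same groups.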

How the data were processed

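RNA was measured in 21 libraries of sorted microglia and infiltrating myeloid cells, in 7 groups of 3, from 40000 and 25000 cells respectively. Expected counts per gene had been estimated by the authors with salmon (nf-core/rnaseq, GRCm38) and were deposited after scaling from TPM, so that gene length is divided out within a library and libraries are not normalized to each other. Each column name matched the labels of 1 library.

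Here values were rounded to whole counts, and 45143 of 45706 identifiers were matched to GENCODE M21. Genes with under 5 counts over all libraries were left out. Counts were fitted in R 4.3.3 with edgeR 4.0.16 (TMM, glmQLFit, glmQLFTest, Benjamini-Hochberg adjustment over all genes), in 1 fit of all groups. Genes were called at an adjusted p under 0.05 (0.1 between genotypes) with a log2 fold change beyond 1 in size, and interactions at an adjusted p under 0.1 alone. Standard errors were derived from fold changes and F statistics. Nothing in the sources ties libraries to cultures or litters beyond the 2 pooled brains, so p-values measure the spread between pools. Whether microglia and infiltrating cells at 1 d came from the same brains is not stated, and their libraries were tested as independent.

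The 6 genes and all gene lists (18 lists, each from general knowledge) were chosen with earlier results of these data known. Beside the 6 genes and Ly6c1, the genes named are, per list and comparison, up to 2 with the smallest p in each direction among those called and the defining markers, and per gene the 3 with the highest Pearson r of log2 CPM. Other genes are named for their role after their values were seen.

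Replicate numbers were taken to pair libraries in 1 comparison, Fgg γ390–396A against WT microglia at 1 d, where same-numbered libraries deviated together (r = 0.410, 0.197 and 0.122). The highest r between differently numbered libraries there was 0.141, above the lowest of these, so the pairing is uncertain. Between the populations at 1 d, same-numbered WT libraries had r of 0.154, 0.130 and 0.0267, with 0.0701 as the highest between different numbers. In Fgg γ390–396A mice these were -0.0250, 0.0805 and 0.0320, with 0.116 as the highest. Those libraries were not taken as paired. Alternatives were DESeq2 1.42.0 (Wald test), its size factors, ribosomal RNA genes left out, filterByExpr or no filter, a replicate block, separate fits of each pair of groups, stricter thresholds, the sum of Ly6c1 and Ly6c2, and leaving out each library. The fit was tested on simulated data.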

Additional observations from a re-analysis of the deposited data

How the results depend on the processing

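Of 720 values of the 6 genes under alternatives that kept all libraries, 707 kept their direction and their side of the threshold, and of 540 that left out 1 library, 463 did. The calls of Fn1 and Thbs1 at 1 d, their fall in WT mice and the calls of Plac8, Vcan, Fn1 and Thbs1 in infiltrating cells held under every alternative run. The number of genes called at 7 d over sham was 1 in place of 2 in WT mice with the compared groups only (Fn1 lost) and 0 to 2 when single libraries were left out, and 1 in place of 0 in Fgg mice with DESeq2 (Saa3). The cause was not tested. Fits without a library left 2 in its group.

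With the replicate number as a block, no call of the 6 genes changed. In the paired comparison, Fgg over WT microglia at 1 d, 16 genes of the whole table were called with it and 13 without. In infiltrating cells it moved the whole-table calls between genotypes from 108 to 66, where the numbers did not pair the libraries. Signs of uncalled values near 0 turned under the block for Ly6c2 at WT 7 d (-0.00390) and Fgg 1 d (-0.60) over sham and for Vcan at WT 7 d over 1 d (0.059, with 0.020 in DESeq2 and 0.0040 with its size factors). They also turned for Saa3 between genotypes in infiltrating cells with the compared groups only (0.0049) and for Fn1 in genotype by time (0.0018 in DESeq2 and 0.0043 with filterByExpr).

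Leaving out single libraries turned the sign of further uncalled log2 values, given here by their range. For WT 1 d microglia over sham these were Ly6c2 -3.29 to 2.6 and Plac8 -0.68 to 2.22. For WT 7 d over sham these were Ly6c2 -0.98 to 3.43. For Fgg 1 d over sham these were Ly6c2 -3.38 to 3.36 and Vcan -0.59 to 3.22. For Fgg 7 d over sham these were Ly6c2 -0.16 to 3.57 and Vcan -0.79 to 2.14. For WT 7 d over 1 d these were Ly6c2 -0.41 to 3.52, Plac8 -0.46 to 1.78 and Vcan -1.26 to 1.11. For Fgg 7 d over 1 d these were Ly6c2 -0.32 to 3.75, Plac8 -0.43 to 0.51 and Vcan -1.64 to 0.36. For Fgg over WT at 1 d these were Ly6c2 -2.78 to 3.45, Plac8 -0.13 to 1.79, Vcan -2.13 to 0.50 and Saa3 -1.56 to 1.44. For Fgg over WT at 7 d these were Ly6c2 -0.33 to 1.33, Plac8 -0.41 to 0.87 and Thbs1 -0.20 to 0.75. For Fgg over WT infiltrating cells these were Vcan -0.29 to 0.28 and Saa3 -0.53 to 0.28. For genotype by time these were Ly6c2 -3.30 to 2.93, Plac8 -1.69 to 0.50, Vcan -2.19 to 0.43, Fn1 -0.43 to 0.52 and Saa3 -3.44 to 0.24. For genotype by population these were Ly6c2 -2.49 to 3.74, Plac8 -0.95 to 1.03, Vcan -0.62 to 2.00 and Saa3 -1.42 to 1.51. None of these values was called in the fit of all libraries.

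Whole-table calls moved by over 1.5 times with DESeq2, at 7 d over sham (820 in place of 481 in WT mice, 347 in place of 158 in Fgg mice), between genotypes (104, 80 and 841 in place of 13, 9 and 108 in microglia at 1 d, at 7 d and in infiltrating cells) and for both interactions (33 and 259 in place of 0 and 11). With the compared groups only they were 85 for Fgg 7 d over sham, 2211 in place of 3967 for Fgg infiltrating cells over microglia, 8, 19 and 7 between genotypes and 0 for genotype by population, and with filterByExpr 176 between infiltrating genotypes. Levels under 0.0448 to 0.158 CPM, depending on the library, cannot be told from 0, which bears on Saa3 and Ly6c1 in sham controls.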
